A study of Drosophila melanogaster with 4 samples.

Results

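On day 8 after egg laying, 653 cells of the scrib mutant wing disc tumor library carried the transcript of kek1 at or above 1 unique molecular identifier (UMI, 1 captured RNA molecule) per 10000 UMIs of the cell. These kek1-positive cells were set against 1540 kek1-negative cells, in which no kek1 UMI was found, so 2193 of the 3104 cells of that library were compared. Another 700 cells had kek1 above 0 and under 1 and entered neither group, and 211 cells with at least 2 of the 5 genes twi, Him, htl, zfh1 and stumps, which mark the adult muscle precursors under the disc, were left out. The groups were therefore chosen by a measured value, and every day 8 difference below is a description of these 2 groups of cells. The tumors came from larvae homozygous for the scrib[1] allele on an FRT82B chromosome, taken at 4, 5, 8 and 14 days, and scrib encodes a protein of the basolateral polarity complex. Each age was 1 pool of discs and 1 10x library with no replicate, and no disc of another genotype was analysed here, so both groups share the mutation, the animals and the preparation. The whole series held 14456 cells.

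EGFR signaling in the fly runs from secreted or cleaved ligands through the receptor, Ras and the Raf, MEK and ERK kinases to nuclear factors that switch on targets, several of which inhibit the pathway in return. Kek1 is such an inhibitor: a transmembrane protein with leucine-rich repeats and an immunoglobulin domain that binds the receptor and is itself induced by EGFR activity. In the wing disc, the pathway is known for patterning the notum and the veins and for promoting growth and survival. Whether other genes of the pathway differ between cells with and without kek1 is the question this comparison addresses.

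The kek1-positive cells held 3133 kek1 UMIs, with a mean of 2.53 and a median of 1.97 per 10000, and the highest cell had 28 UMIs. Of these cells, 154 had 2 kek1 UMIs, 153 had 3 and 346 had at least 4. The cells between the groups held 551 with 1 UMI, 122 with 2 and 27 with 3, so a cell with few UMIs fell on either side of the limit according to its depth. The 43 cells just inside the limit, from 1.01 to 1.09, had a mean sty level of 0.71 per 10000, and the 39 cells just outside it, from 0.90 to 1.00, had 0.65. The median depth was 17708 UMIs and 2852 genes in positive cells and 17967 UMIs and 2780.5 genes in negative cells. Genes per cell spanned 2433 to 3543 between the 10th and 90th percentiles in positive cells and 2357 to 3500 in negative cells. Depth thus differed little between the groups. The cells in between were deeper, with a median of 20634 UMIs.

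All 4 libraries were used. They held 3785, 6457, 3104 and 1110 cells in order of age, with median depths from 18298.5 to 23326 UMIs per cell. The day 8 library shared 56 cell barcodes with the other libraries. Epithelial identity was checked with disc markers: the junction protein gene Fas3 was found in 99.5% of positive and 99.5% of negative cells at equal depth, and the epithelial transcription factor gene grh in 79.9% and 69.4%. Of the muscle precursor markers, twi, Him, zfh1, htl and stumps had at most 14 UMIs each in the positive cells and 19 in the negative cells, which the rule itself limits. In the negative cells, 1 cell held 16 (84.2%) of the Him UMIs. At equal depth zfh1 was found in 0.613% of positive and 0.130% of negative cells, and stumps in 0.613% and 0.390%. The shares were 0.459% and 0.649% for twi, 0.153% and 0.195% for Him, and 0.306% and 0.325% for htl. In the positive cells, 1 cell held 42.9% of the twi UMIs and 1 cell 55.6% of those of zfh1. SPARC, a matrix gene found in 99.5% of the left-out cells, was found at equal depth in 7.20% of positive and 4.03% of negative cells, and 5 cells held 72.2% of its UMIs in the positive group. Without the cells that had 1 of the 5 genes, the log2 ratios given below were 1.43 for sty and 1.59 for aos, beside 1.47 and 1.56 with them, and that of pnt went from 1.06 to 0.91, under 2-fold. Among tracheal markers other than vvl, trh had 39 UMIs in positive cells and 62 in the more numerous negative cells, and btl had 14 and 15. At equal depth trh was found in 3.83% (2.49 to 5.60) of positive and 2.47% (1.75 to 3.37) of negative cells. For btl the shares were 1.53% (0.74 to 2.80) and 0.714% (0.36 to 1.27). The scavenger receptor gene crq, the hemocyte marker measured, lay at 0.14 and 0.13 per 10000, and the neuronal gene elav at 0.16 and 0.14. The other neuron and sensory organ markers were scarcer, but the proneural genes ac and sc were found in more of the positive cells at equal depth: ac in 10.4% (8.18 to 13.0) against 4.35% (3.39 to 5.49), and sc in 12.4% (9.97 to 15.2) against 7.01% (5.79 to 8.40). Their log2 ratios were 1.44 (131 and 118 UMIs) and 1.16 (175 and 183 UMIs), and their part in the results was not tested.

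Feedback inhibitors other than kek1 were higher in the kek1-positive cells. The level of sty, which encodes Sprouty, an intracellular inhibitor of receptor tyrosine kinase signaling, was 0.89 UMIs per 10000 in positive cells and 0.32 in negative cells (1107 and 979 UMIs). The log2 ratio of these means was 1.47, with a 95% counting interval of 1.34 to 1.59, or 2.76-fold. The level of aos, which encodes Argos, a secreted protein that sequesters the ligand Spitz, was 0.24 against 0.08 per 10000 (303 and 250 UMIs), a log2 ratio of 1.56 (1.31 to 1.80). After each cell was thinned to 12859 UMIs, sty was found in 58.7% (54.8 to 62.5) of positive cells and 28.7% (26.5 to 31.0) of negative cells. At the same depth aos was found in 23.9% (20.7 to 27.4) and 8.83% (7.46 to 10.4). Without thinning the shares were 67.7% and 35.3% for sty and 31.4% and 12.4% for aos. The intervals are exact and cover counting error only, not the spread between animals. The interval of a ratio leaves out the spread between cells as well.

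Other negative regulators differed less. Mkp3, the phosphatase that inactivates ERK, was 2.25 against 1.49 per 10000, a log2 ratio of 0.60 (0.53 to 0.66). The ubiquitin ligase gene Cbl had a ratio of 0.29 (0.12 to 0.47) and RasGAP1, a Ras inactivator, 0.28 (0.04 to 0.52). PTP-ER, a phosphatase acting on ERK, was at 0.06 (−0.45 to 0.54) and vap, the other Ras inactivator measured, at −0.13 (−0.32 to 0.05), so the intervals of both included 0. In the list of 7 targets and feedback inhibitors found on day 8 without kek1, 6 passed a mean of 0.1 per 10000 over both groups together. Of these, 5 were higher in positive cells and 2 were past 2-fold. Over all 5127 genes that passed this limit, 61.0% were higher and 44 (0.858%) at least 2-fold higher.

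Among the ligands, the difference was concentrated in vn, which encodes the neuregulin-like secreted ligand Vein. It was 0.76 against 0.18 per 10000 (943 and 572 UMIs), a log2 ratio of 2.09 (1.94 to 2.24) or 4.26-fold. At equal depth vn was found in 38.9% (35.1 to 42.8) of positive and 13.1% (11.4 to 14.8) of negative cells, and in 5.21% of the left-out muscle precursor-type cells, whose median depth was 16357 UMIs before thinning. The membrane-bound ligand genes spi and Krn, which need cleavage to act, had ratios of 0.20 (0.12 to 0.29) and 0.36 (0.13 to 0.60). Star (S), needed for ligand export, had 0.42 (0.23 to 0.62). The protease gene rho, whose product cleaves Spitz, was scarce, with 49 and 58 UMIs, and its ratio of 1.12 (0.54 to 1.69) rests on these few molecules. The oocyte ligand gene grk had 1 and 3 UMIs.

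The genes of the receptor and the transduction steps did not share the pattern. Egfr itself was lower in positive cells, at 0.75 against 0.88 per 10000, a log2 ratio of −0.23 (−0.34 to −0.12). The adaptor gene drk had a ratio of −0.15 (−0.24 to −0.08). Ras85D (0.02), the ERK gene rl (0.05), the MEK gene Dsor1 (−0.06) and the adaptor gene Shc (0.02) had intervals that included 0. The phosphatase gene csw was at 0.27 (0.08 to 0.45). Of 12 members found, 8 passed the mean of 0.1, 5 of these were higher and 3 lower, and 0 were past 2-fold. Of all 5127 genes that passed the same limit, 3125 (61.0%) were higher, so this count was near that of all genes. The median ratio of the list was 0.02, beside 0.05 over all genes.

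Of the 6 nuclear effectors found, 4 passed the mean of 0.1 and all 4 were higher, with a median of 0.49. The ETS activator gene pnt was 0.17 against 0.08 per 10000 (217 and 238 UMIs), a log2 ratio of 1.06 (0.79 to 1.33). It was under 2-fold, at 0.99, when each gene's values were capped at the 99th percentile, and at 0.91 without the cells that had 1 of the 5 muscle precursor genes. The modulator gene edl, whose product antagonizes ETS proteins, had 0.94 (0.54 to 1.34) on 99 and 114 UMIs, and 0.82 without the cells that had 1 of those 5 genes. At equal depth edl was found in 7.96% of positive, 4.48% of negative and 23.7% of left-out cells. Repressors that ERK inactivates were also higher: cic at 0.55 (0.46 to 0.64), aop at 0.27 (0.20 to 0.34) and ttk, another transcriptional repressor, at 0.43 (0.28 to 0.58). Ets21C, an ETS gene associated with JNK signaling, was at −0.08 (−0.53 to 0.35). Over the 4 EGFR and ERK lists together, 22 of 31 members found passed the mean of 0.1, 18 were higher, 4 were lower, and 4 (vn, aos, sty and pnt) were past 2-fold. The median of the 22 was 0.28, beside 0.05 over all genes, of which 61.0% were higher and 44 past 2-fold higher. The Notch and heat shock lists also had medians of 0.29 and 0.30 and the glycolysis list 0.48.

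**Figure D1:**
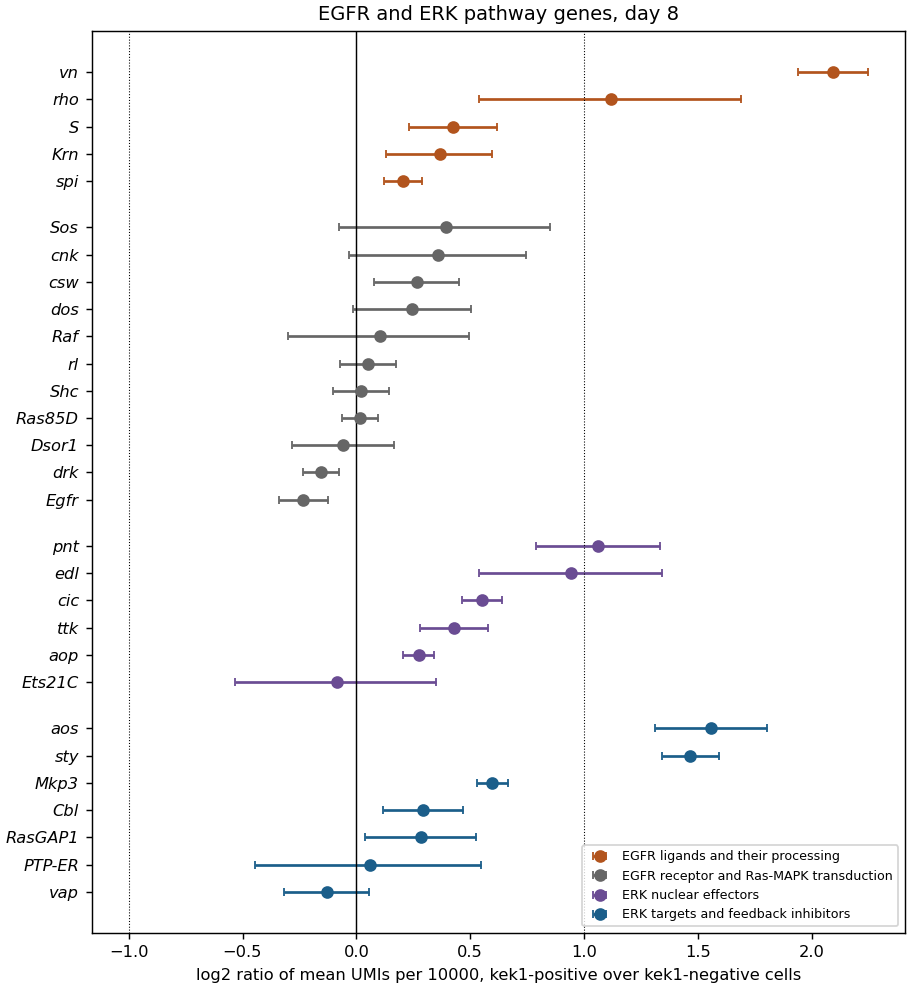
Log2 ratio of mean UMIs per 10000, kek1-positive over kek1-negative cells of day 8, for the pathway genes with at least 100 UMIs in both groups together, coloured by role. Bars are 95% counting intervals and dotted lines mark 2-fold; vn, aos, sty, rho and pnt lie to the right of the upper line, and Egfr at −0.23 is the lowest.

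The members were also followed over steps of kek1 level, since the groups are a split of a continuous measure. From cells with no kek1, through those above 0 and under 1, 1 to under 2, 2 to under 4, and 4 or more per 10000 (1540, 700, 334, 225 and 94 cells), vn was 0.18, 0.29, 0.48, 0.88 and 1.49. Over the same steps aos was 0.08, 0.13, 0.15, 0.29 and 0.46, and pnt was 0.08, 0.11, 0.13, 0.17 and 0.29. These 3 genes were higher at each step than at the one before it, although neighbouring counting intervals overlapped for pnt and for the steps above 0 and under 1 and 1 to under 2 of aos. The level of sty was 0.32, 0.57, 0.81, 0.98 and 0.97, and the last pair did not differ beyond its counting error (0.88 to 1.07 and 0.83 to 1.13). Mkp3 was 1.49, 1.84, 2.05, 2.31 and 2.80. Egfr was 0.88, 0.82, 0.75, 0.75 and 0.75, and rl was between 0.50 and 0.63 at every step. The steps are part of the rule's own measure and are given as a description.

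**Figure D2:**
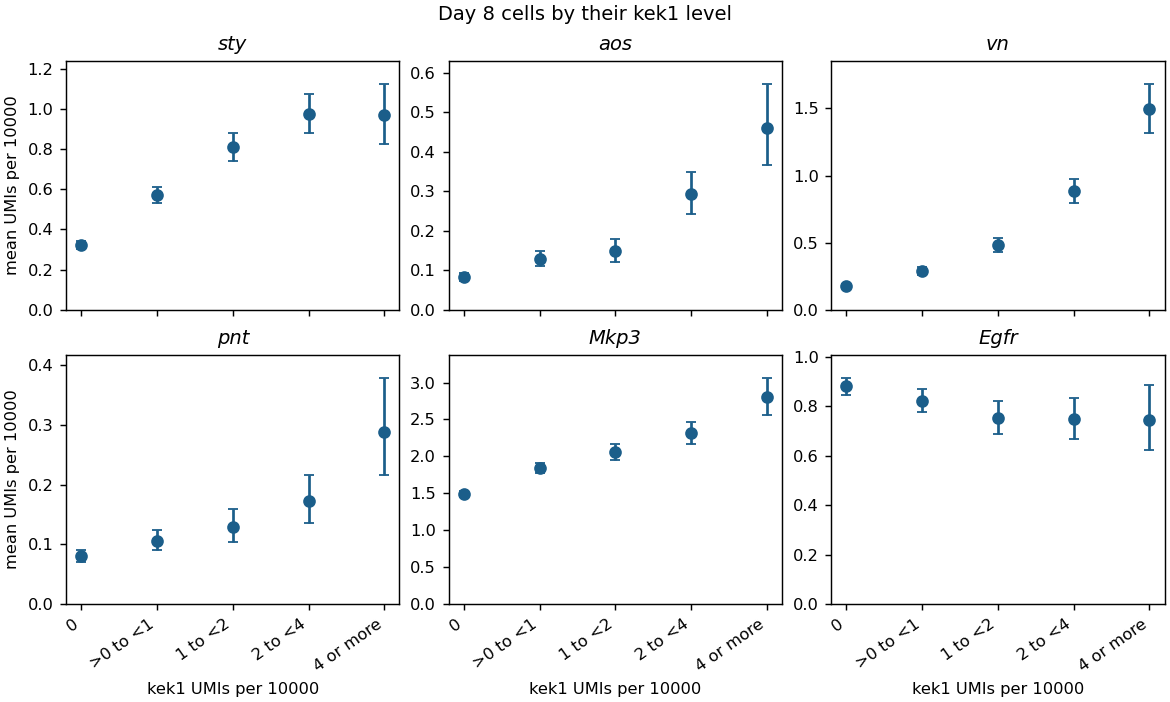
Mean UMIs per 10000 (y axis, from 0) of 6 pathway genes in the day 8 cells of each kek1 step (x axis), with exact 95% Poisson intervals. The level of vn goes from 0.18 to 1.49 and that of aos from 0.08 to 0.46, sty levels off at 0.97, and Egfr goes from 0.88 to 0.75.

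Detection in single cells followed the means. At equal depth, at least 2 of the 4 genes sty, aos, vn and pnt were found in 296 of 653 positive cells (45.3%, 41.5 to 49.2), in 22.9% (19.8 to 26.2) of the cells in between and in 205 of 1540 negative cells (13.3%, 11.7 to 15.1). None of the 4 was found in 22.1% of positive and 56.8% of negative cells. The positive cells were thus mixed: 144 of them showed none of the 4 genes at this depth, and 8 showed all 4. In the left-out muscle precursor-type cells, sty (90.5% of cells), pnt (72.0%) and aos (42.2%) were found more often than in positive cells, and kek1 had a mean of 1.79 per 10000.

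Of the other Kekkon genes, kek4, kek5 and kek6 were found on day 8. Only kek5 was measurable, at 0.40 against 0.31 per 10000, a log2 ratio of 0.35 (0.19 to 0.51). For kek4 there were 9 and 12 UMIs, and for kek6 4 and 3.

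Across the transcriptome, few genes stood as far apart as these. Of 2143 genes other than kek1 with a mean of at least 0.5 per 10000 in either group, 19 (0.887%) were at least 2-fold higher in kek1-positive cells and 6 (0.28%) at least 2-fold lower, and the median log2 ratio was 0.01. Under a limit that does not look at the groups, a mean of 0.1 over both together, 44 of 5127 genes (0.858%) were at least 2-fold higher and 22 (0.429%) at least 2-fold lower. Of the 11 EGFR and ERK members that passed the first limit, 2 were past 2-fold, sty and vn. Both passed it only through the group in which they were high, and so did CG15353, Notum, wg, mirr, Clect27, Kal1, Sox15 and nub among the 19. The count under this limit therefore depends in part on the groups. All 19 higher and all 6 lower genes were also past 2-fold under the limit of 0.1 over both groups together. Among the 5127 genes of the other limit, ranked from the highest ratio down, vn ranked 8, aos 17, sty 23 and pnt 39. The highest of the 19, CG15353, had 1442 UMIs in positive cells, of which 1440 lay in 1 cell, so its log2 ratio of 8.08 describes that cell.

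**Figure D3:**
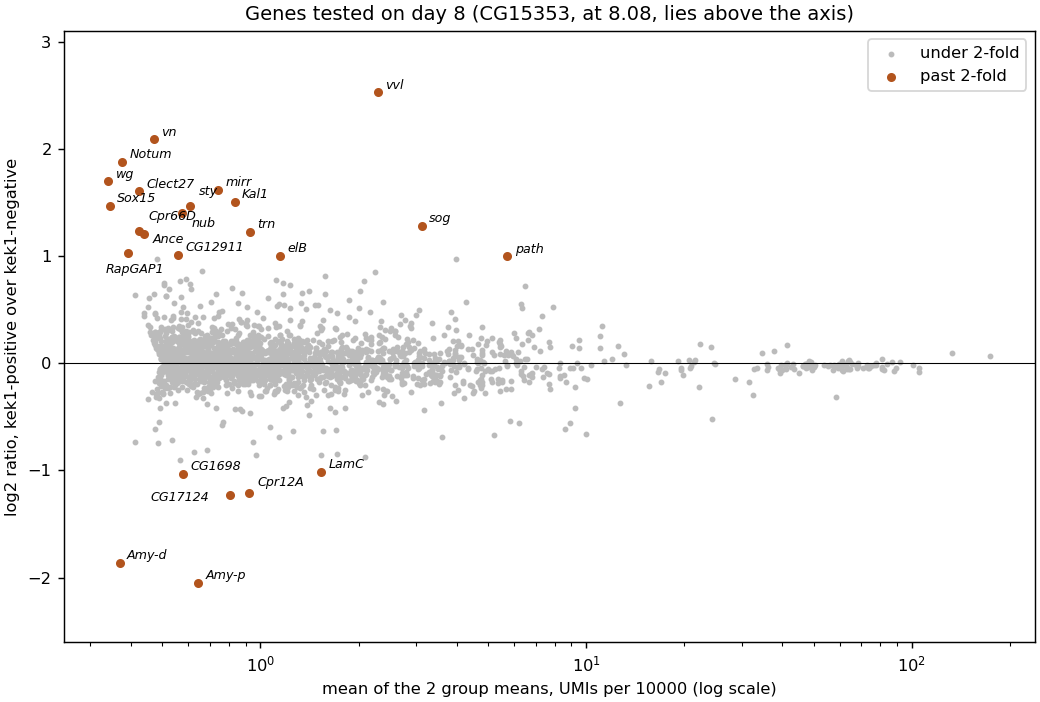
Log2 ratio, kek1-positive over kek1-negative cells (y axis), against the mean of both group means in UMIs per 10000 (x axis, log scale), for the 2143 genes tested on day 8. Named points are past 2-fold, led by vvl at 2.53 and vn at 2.09 above and by Amy-p at −2.05 and Amy-d at −1.86 below.

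Among these, 5 genes encode transcription factors of disc regions. The POU-domain factor gene vvl was 3.91 against 0.68 per 10000, a log2 ratio of 2.53 (2.45 to 2.61), and was found at equal depth in 62.5% of positive, 22.1% of negative and 6.64% of left-out cells. It also marks trachea, whose markers trh and btl had the few UMIs given above, and the part of tracheal cells in its ratio was not tested. The notum gene mirr, of the Iroquois complex, was 1.12 against 0.36 (1351 and 1056 UMIs), a ratio of 1.62. The hinge gene Sox15 had 1.47 (1.31 to 1.64) and the pouch gene nub 1.41 (1.27 to 1.54). Genes of 3 different regions of the disc were thus among those past 2-fold. The zinc-finger gene elB was at 1.00. Under the limit of 0.1, the hinge gene zfh2 (1.49) and the distal limb gene Dll (1.68) were past 2-fold as well. Other genes of the same lists were not: the notum gene eyg was at 0.46, the pouch genes vg and rn at −0.12 and 0.63, and the hinge gene tsh at −0.24. The hinge-list gene Doc1, a T-box factor gene, was lower, at −1.07 (−1.38 to −0.77). Of list members under that limit, at equal depth the notum gene pnr was found in 6.89% of positive and 2.73% of negative cells. The pouch gene pdm2 was found in 3.06% and 0.714%, and the notum genes toe and ush in 9.65% and 6.10% and in 3.68% and 2.86%. The hinge genes Doc2 (1.68% and 3.38%), Doc3 (4.44% and 9.35%) and dve (4.13% and 6.56%) were found in a smaller share of positive cells.

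Wnt pathway genes went both ways. The ligand gene wg was 0.52 against 0.16 per 10000, a log2 ratio of 1.70 (1.53 to 1.87), and Notum, which encodes a secreted enzyme that inactivates Wnt proteins, was 0.59 against 0.16, a ratio of 1.88 (1.71 to 2.05). Wnt6 was at 1.18 (1.00 to 1.37). The receptor gene fz was at 0.73, while fz2, another receptor gene, was lower at −0.86 (−0.94 to −0.77). Of 10 members that passed the mean of 0.1, 6 were higher and 4 lower, a share higher near the 61.0% of all genes, and 3 were past 2-fold. Their median was 0.38, beside 0.05 over all genes. The members that did not pass, Wnt2, Wnt4, Wnt10 and fz3, were found in a larger share of positive cells at equal depth. The shares were 11.6% against 2.66% for Wnt2, 1.53% against 0.260% for Wnt10 and 16.4% against 8.38% for fz3. For Wnt4 they were 1.07% (0.43 to 2.20) against 0.455% (0.18 to 0.93), and these intervals overlapped. Among Dpp and activin pathway genes, brk, a repressor of Dpp targets, was at 1.06 (0.90 to 1.23) and daw, an activin-like ligand gene, at 1.21 (0.99 to 1.43), while dpp itself was at −0.13. The secreted Dpp antagonist gene sog was 4.43 against 1.82 per 10000, a ratio of 1.28 (1.23 to 1.34).

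The rest of the 19 were the cell surface and secreted protein genes trn (1.23), Kal1 (1.51), Clect27 (1.60), Cpr66D (1.24) and Ance (1.21), the Rap inactivator gene RapGAP1 (1.03), the amino acid transporter gene path (1.00) and CG12911 (1.01). For CG12911, 5 cells held 71.3% of the positive and 76.7% of the negative UMIs, and it was found at equal depth in 5.51% and 3.38% of cells. Of the chitin and cuticle list, obst-A was at 1.53 and the list's median was 0.26.

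The 6 lower genes were led by the amylase genes Amy-p, at 0.25 against 1.04 per 10000 (log2 ratio −2.05, −2.23 to −1.88), and Amy-d at −1.86 (−2.09 to −1.65). These copies are nearly identical and their reads may have been split between them. In the positive cells, 5 cells held 83.1% of the Amy-p UMIs. The A-type lamin gene LamC was 1.02 against 2.06, a ratio of −1.01 (−1.10 to −0.93), and over the kek1 steps it was 2.06, 1.61, 1.34, 0.74 and 0.56. The others were CG17124 (−1.23), the cuticle gene Cpr12A (−1.21) and CG1698 (−1.03).

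Under 2-fold but among the 15 lowest were 2 genes known as JNK targets. Mmp1, a matrix metalloproteinase gene, was 0.50 against 0.87 per 10000, a log2 ratio of −0.81 (−0.93 to −0.69), and over the kek1 steps it was 0.87, 0.70, 0.74, 0.27 and 0.18. The direction was not shared by all cells: in the 6 clusters described below, Mmp1 was higher in the positive cells of 3, with ratios from −1.46 to 1.19, and cluster 5 held 2399 of the 3230 Mmp1 UMIs of the negative cells. On day 4 the ratio was 1.14 (0.93 to 1.34), in the opposite direction. Ilp8, a relaxin-like peptide gene, was 0.69 against 1.25, a ratio of −0.86 (−0.97 to −0.76). It was nevertheless found in more of the positive cells at equal depth (19.3% against 14.5%), and 1 positive cell held 18.5% of that group's UMIs. The filamin gene cher was at −0.63. The JNK feedback phosphatase gene puc was at −0.03 (−0.19 to 0.13) and the kinase gene bsk at −0.02. Of 11 members of the JNK list that passed, 4 were higher and 7 lower, and 0 were past 2-fold, with a median of −0.03, beside 61.0% higher and 0.05 over all genes. The members that did not pass, the ligand gene egr (2.37, 1.29 to 3.55, on 24 and 11 UMIs) and the receptor gene wgn (1.24, 0.89 to 1.58, on 144 and 141 UMIs), had ratios past 2-fold higher. At equal depth egr was found in 7 positive and 5 negative cells, and 5 cells held 66.7% of its UMIs in the positive group. It was found in 19.9% of the left-out muscle precursor-type cells. For wgn the shares were 12.9% of positive, 5.06% of negative and 40.3% of left-out cells. The PDGF/VEGF-like ligand gene Pvf1 was at −0.98 (−1.17 to −0.79).

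No gene of the glycolysis, heat shock, cell cycle, ecdysone, Hippo or Notch lists that passed the mean of 0.1 was past 2-fold, and their counts stand beside 61.0% higher over all genes. All 12 glycolysis genes were higher in positive cells, from 0.14 for ImpL3, which encodes lactate dehydrogenase, to 0.74 for Pfk, the phosphofructokinase gene, with a median of 0.48. The small heat shock genes Hsp23, Hsp26 and Hsp27 were at 0.57, 0.72 and 0.38, and Hsp68 at 0.65. The G2/M list had a median of 0.11 and the S phase list 0.15. The ecdysone response list had 7 of 7 members higher with a median of 0.22, and the Hippo list 10 of 10 with 0.22. The Notch list had 8 of 10 higher with 0.29. The dosage compensation RNA genes roX1 and roX2 were at 0.35 and 0.39. Among 83 ribosomal protein genes 67 were lower, with a median of −0.02.

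The kek1-positive cells were not spread evenly over the disc cells. Kept cells were grouped into 8 clusters made without kek1 and the EGFR and ERK genes, and the share of positive cells ran from 7.62% (5.34 to 10.5) in cluster 4, led by CR31781 and regucalcin, to 33.7% (29.2 to 38.4) in cluster 6, led by Ance, tup and mirr, and 36.5% (27.3 to 46.6) in cluster 7, led by ImpL3 and Cpr64Ac. Cluster 2, led by nub, had 32.0%, and 8 of the 20 cells of cluster 8, led by CG15353, were positive. In 6 clusters, numbers 2 to 7, each group had at least 20 cells. The sty level was higher in the positive cells of all 6, with log2 ratios from 0.38 to 2.68, and so were vn (0.77 to 2.48) and pnt (0.31 to 3.27). The highest sty ratio was that of cluster 4, with 34 positive cells and 74 and 109 UMIs, and in the other 5 clusters it was 0.38 to 1.57. The aos level was higher in 5 of 6, from −0.06 in cluster 5, with 4 and 17 UMIs, to 1.87. Averaged over the 6 clusters with the same weights for both groups, the ratio was 1.28 for sty, 1.34 for aos, 1.47 for vn and 1.35 for pnt, beside 1.47, 1.56, 2.09 and 1.06 without regard to clusters. The pnt average was carried by cluster 4, where the ratio of 3.27 came from 32 and 36 UMIs, and in the other 5 clusters it was 0.31 to 1.16. For the region genes the ratio went from 2.53 to 1.95 for vvl, from 1.62 to 1.05 for mirr, from 1.47 to 1.22 for Sox15 and from 1.41 to 0.73 for nub, and for wg it went from 1.70 to 1.07. The decrease for vn was thus of about the size of that for vvl, mirr and wg. The glycolysis median was 0.27 within clusters. Within clusters Amy-p was at −0.28 and Amy-d at −0.08. There, 6 of the 19 higher genes and 0 of the 6 lower genes were past 2-fold with a mean of at least 0.5. Notum (1.31), Sox15 and wg kept ratios past 2-fold within clusters but fell under that mean. The 1 gene past 2-fold lower within clusters was Ilp8, at −1.43 beside −0.86, and it was lower in the positive cells of 5 of the 6 clusters. Cluster 7, with 38 positive and 51 negative cells, weighed heavily in this average. Its mean Ilp8 levels were 2.08 and 17.4, a ratio of −3.06, while negative means elsewhere were at most 2.34. The Ilp8 ratios of clusters 3 and 4 rest on 8 and 3 UMIs in positive cells, and cluster 5 was at 1.16. The Ilp8 average without cluster 7 was not tested. Cluster membership and the genes that define it come from the same cells, and their part in the result was not tested.

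**Figure D4:**
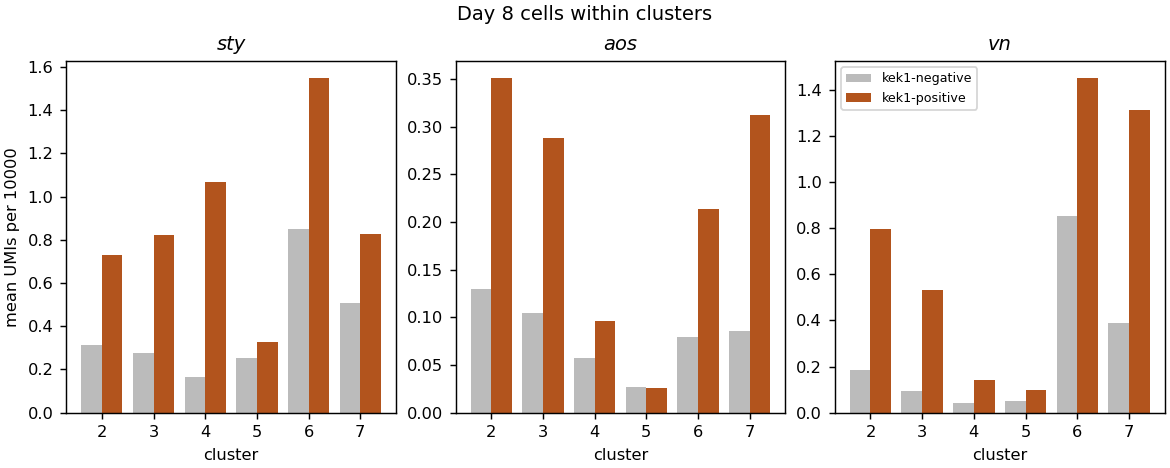
Mean UMIs per 10000 (y axis, from 0) of sty, aos and vn in the kek1-negative and kek1-positive day 8 cells of each of the 6 clusters with at least 20 cells of both groups. Positive cells are higher in all 6 clusters for sty and vn and in 5 of 6 for aos.

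The rule did not use the libraries of the other ages, and the same split was made in them. Positive and negative cells numbered 47 and 3206 on day 4, 126 and 5197 on day 5, and 670 and 219 on day 14. On days 4 and 5 the positive cells were shallower than the negative cells (medians of 17460 against 23360 and 13994.5 against 19114 UMIs), and 9 and 29 of them had a single kek1 UMI. On day 14 they were deeper (19164 against 17780). The positive cells of days 4 and 5 also carried SPARC, a gene of the muscle precursor-type cells, at log2 ratios of 5.72 and 6.03, against 2.18 on day 8 and 1.71 on day 14. The part of these values in the ratios of the other libraries was not tested.

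In all 3 libraries sty was higher in positive cells, with log2 ratios of 1.37 (0.88 to 1.83), 1.83 (1.56 to 2.08) and 0.96 (0.80 to 1.14) in order of age. For aos the ratio was 0.67 on day 4 and 0.27 on day 5, on 5 and 13 UMIs in positive cells and with intervals that included 0 (−0.96 to 1.91 and −0.65 to 1.06), and 1.02 (0.64 to 1.42) on day 14. The vn ratio was 0.93 (−0.21 to 1.87), 0.79 (0.07 to 1.43) and 1.15 (0.93 to 1.37), below that of day 8 each time. Mkp3 was at 0.70, 0.61 and 0.45. On day 14 the levels were higher in both groups than on day 8, with sty at 1.52 against 0.78 and vn at 1.03 against 0.47 per 10000. Egfr was at −0.10, 0.21 and 0.10.

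Of the 19 genes at least 2-fold higher on day 8, 19 were above 0 on day 5, where 38.0% of all 2143 genes were, and 17 of the 18 found on day 14 were above 0, where 49.7% of all were. On day 4 it was 12 of 19, beside 42.1%. These counts include CG15353, with 98.8% of its UMIs in positive cells of day 5 and 100% of those of day 4 in 1 cell. Some ratios rest on few molecules, such as that of Kal1 on day 5 (1.07, −0.26 to 2.13, on 7 UMIs in positive cells). Of the 6 lower genes, 5 were below 0 on day 5, 6 on day 14 and 4 on day 4, beside 62.0%, 50.3% and 57.9% of all genes. By the same 2-fold rule within each library, 21 genes were higher (1.02%) and 2 lower (0.0969%) of 2065 on day 5, and 45 were higher (1.84%) and 6 lower (0.245%) of 2449 on day 14. On day 14 mirr was at 2.17 (1.99 to 2.36), Notum at 2.17 (1.86 to 2.49) and wg at 1.41 (1.16 to 1.67).

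**Figure D5:**
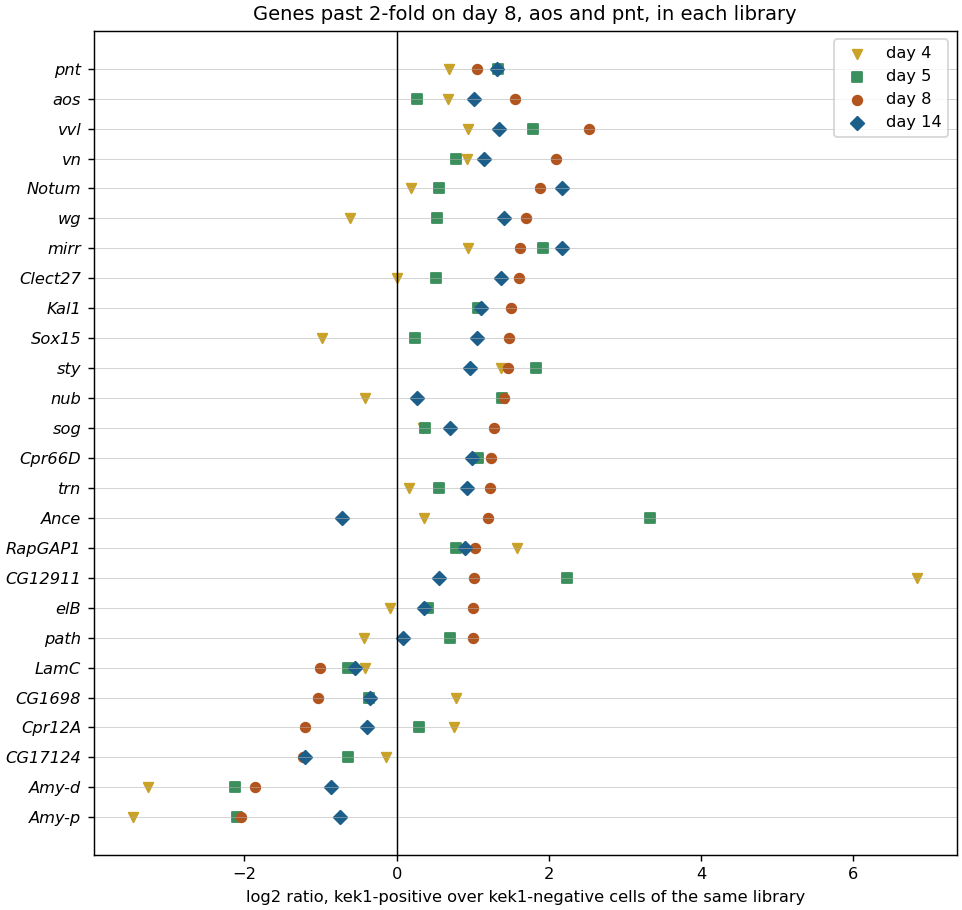
Log2 ratio, kek1-positive over kek1-negative cells of the same library (x axis), for the genes past 2-fold on day 8 without CG15353, and for aos and pnt (y axis), in each of the 4 libraries. The day 5 points lie right of 0 for every higher gene, Ance on day 14 lies at −0.71, and the day 4 point of CG12911 at 6.84 comes from 672 UMIs in 47 positive cells.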

How the data were processed

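Each age was 1 library of trypsin-dissociated discs. The authors counted UMIs with Cell Ranger and normalised them with Seurat (LogNormalize), and deposited each value as a natural log (of UMIs per 10000, plus 1). For the Cell Ranger version and the genome build: not given in the sources used here. Exponentiated values, minus 1, added up to 10000 per cell and were whole multiples of the cell's lowest value (100% within 0.001), so UMIs were recovered. The day 8 library held 62338564 UMIs in 3104 cells. No doublet caller was run, and no cell had more than 3995 genes on day 8.

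Means over cells of UMIs per 10000 were compared as log2 ratios, positive over negative. Intervals of ratios are exact conditional binomial intervals from summed UMIs, and those of shares are Clopper-Pearson intervals, at a level of 95%. With 1 library per age no test was made. A gene was called past 2-fold if its mean was at least 0.5 in either group. Cells were thinned without replacement to 12859 UMIs, the lowest total among kept day 8 cells. Clusters were made with scanpy (version 1.11.5; 2000 variable genes, 30 components, 15 neighbours, Leiden resolution 0.5). The scripts were tested on simulated counts.

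Named genes were all EGFR, ERK and Kekkon members, the 15 highest and 15 lowest ratios, other genes past 2-fold, list members past 2-fold and cell type markers. List members given to show a list's range and the marker genes of clusters were added after their values were seen. The groups, members and lists were chosen with earlier results of these data known. Alternatives were pooled UMIs, thinning, matching on genes per cell, other kek1 limits, other cell filters, scaling without ribosomal protein genes, within clusters, other limits on the mean and, added after seeing the data, capped values and a limit on the pooled mean.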

Additional observations from a re-analysis of the deposited data

Results flagged for a closer look

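In 3 cases a gene past 2-fold on day 8 lay on the other side of 0 in another library, with a counting interval that left out 0. The peptidase gene Ance, 1.21 on day 8, was at −0.71 (−0.86 to −0.57) on day 14, where positive cells held 1190 and negative cells 547 UMIs. The amino acid transporter gene path, 1.00 on day 8, was at −0.42 (−0.81 to −0.06) on day 4, on 62 UMIs in positive cells. CG1698, −1.03 on day 8, was at 0.79 (0.39 to 1.16) on day 4, on 58 UMIs. The differences between ages were not tested, since each age had 1 library.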

How the results depend on the processing

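The count of genes at least 2-fold higher, 19, was 15 to 18 with pooled UMIs, thinned cells, matched genes per cell, no cells left out or capped values, and 19 without cells that had 1 of the 5 genes. It was 33 with kek1 at or above 2, 10 with any kek1, 32 scaled without ribosomal protein genes, 12 within clusters, 41 and 7 with mean limits of 0.2 and 1, and 44 with the pooled mean limit. The count of lower genes, 6, was 35, 2, 12, 1, 14 and 22 with kek1 at or above 2, any kek1, ribosomal scaling, clusters, the 0.2 limit and the pooled limit. Lower mean limits, and the larger scaled values without ribosomal protein genes, bring more genes into the test by construction. With no cells left out, 10 of the 19 were among the genes called. For the other changes the cause was not tested. EGFR and ERK genes past 2-fold, 2, were 0 with a limit of 1 and 4 with the pooled limit. The sty ratio of 1.47 was 1.60 with kek1 at or above 2, 1.17 with any kek1, 1.84 with no cells left out and 1.28 within clusters. The aos ratio of 1.56 was 2.05 with kek1 at or above 2 and 1.16 with any kek1. CG15353 was reversed, at −0.35 with kek1 at or above 2 and −2.05 within clusters. The other 23 genes kept their sign under all 10 alternatives run on them. Of these 24 genes, 18 were under 2-fold in at least 1 alternative, in 48 of 240 values. No paired analysis was possible because each age had 1 library. A UMI count of 0 for kek1 does not show that a cell lacked the transcript.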
